A study of Mus musculus with 6 samples.

Results

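Nuclear receptors are transcription factors, most of which are switched by small fat-soluble ligands such as steroid and thyroid hormones, retinoic acid, vitamin D, fatty acids and oxysterols, while orphan members act without a known hormone. The Pgc1 coactivators bind many of them and drive genes of mitochondria and fuel use. A list of 47 such genes, 45 receptors and the coactivators Ppargc1a and Ppargc1b, was read from bone marrow of 6 leukaemic mice, and a gene counted as measured where a probe set of the array carried its symbol and no other. This held for 45 of the 47 members among 19938 genes; the oxysterol receptor Nr1h2 and the photoreceptor receptor Nr2e3 were not analysed here. Where several probe sets measured a member, which was the case for Ppargc1a, the brightest over the 6 arrays was used.

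Each array held RNA of bone marrow cells from 1 mouse, collected when disease appeared. All 6 animals were CD45.1+ recipients, irradiated with a lethal dose and rescued with CD45.2+ LSK cells (the marrow fraction rich in stem and early progenitor cells) into which Meis1, a homeobox cofactor gene, had been introduced together with a HoxA9 construct marked by GFP. In the HoxA9wt/Meis1 group (3 mice) the construct was wild-type HoxA9, and in the HoxA9AA/Meis1 group (3 mice) it was the altered form named HoxA9AA; both groups carry introduced Meis1, neither has untreated marrow beside it, and sex and age are not given in the labels. Sorting is not mentioned, so recipient cells left in the marrow could contribute RNA. Values are log2 expression, on which 1 unit is a doubling, and a probe set's level cannot be set against another probe set's. A difference above 0 means a higher mean in HoxA9AA/Meis1.

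A member was called above background where it exceeded the 95th percentile of the 1027 olfactory receptor genes of the same array (6.52 to 6.72) on all 3 arrays of at least 1 group. Medians of all probe sets ran from 6.73 to 6.85. Hoxa9 (7.89 to 9.07) and Meis1 (8.50 to 10.58) were above background on all 6 arrays. Markers of early granulocytes (8 of 8 measured) and monocytes (13 of 13) were above background, against 4 of 9 for B cells and 2 of 10 for T and NK cells. Over all genes HoxA9AA replicate 2 correlated with the HoxA9wt arrays at 0.989 to 0.991, HoxA9AA replicate 1 at 0.958 to 0.966 and replicate 3 at 0.968 to 0.970; these correlations run across genes and carry no test.

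Of the 45 measured members 27 were above background, or 60.0%, against 57.2% of all genes. The members present covered most receptor families. They were the thyroid hormone receptor Thra, the retinoic acid receptors Rara and Rarg, their shared partners Rxra and Rxrb, the fatty acid receptors Ppard and Pparg, the vitamin D receptor Vdr, the xenobiotic receptor Nr1i3 and Hnf4a, a receptor known for liver and gut. The clock receptors Nr1d1, Nr1d2 and Rora, the orphans Nr2c1, Nr2c2, Nr2e1 and Nr2f6, the oestrogen receptor Esr1, the oestrogen-related Esrra and Esrrg and the glucocorticoid receptor Nr3c1 passed too, as did Nr4a1, Nr4a2, Nr5a1, Nr6a1 and both Pgc1 genes. For 6 of these the limit was met in 1 group only, which was HoxA9wt/Meis1 for Rora and Nr4a1 and HoxA9AA/Meis1 for Vdr, Nr2e1, Esrrg and Ppargc1a. With the 99th percentile as the limit 11 members passed, so many of these levels lay close to background.

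The other 18 measured members did not pass. Of these, 16 exceeded the limit on none of the 6 arrays: Rarb, Rxrg, Ppara, Nr1h4 (the bile acid receptor), Nr1i2, Hnf4g, Rorb, Nr2f1, Nr2f2, Esr2, Nr3c2 (the mineralocorticoid receptor), Pgr, Nr4a3, Nr5a2, Nr0b1 and Nr0b2. Esrrb exceeded it on 1 array. Thrb, the second thyroid hormone receptor, exceeded it on 3, at 6.85 in HoxA9wt replicate 1 and at 7.48 and 6.68 in HoxA9AA replicates 1 and 2, while the other arrays measured 6.09 to 6.30. Pgr, the progesterone receptor, lay at 6.08 to 6.10 in HoxA9wt/Meis1 and at 5.80 to 5.88 in HoxA9AA/Meis1, all under the limit, so that its small difference is one between background readings.

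No member differed between the groups by the test across all genes. With limma and Benjamini-Hochberg adjustment 0 of 45 members passed an adjusted p of 0.05 (smallest 0.731), as did 0 of 19938 genes, or 0.0%. An unadjusted p under 0.05 was reached by 5 members, the higher Thra, Ppard, Vdr and Esr1 and the lower Pgr. Among all genes the share was 4.15% towards higher and 2.59% towards lower values, against 4 and 1 of 45 here. The count of 5 was 3 without HoxA9wt replicate 2 and also 3 without HoxA9wt replicate 3. Mice of the groups did not overlap for 7 members towards higher values, against 6.6% of all genes, and for 1 (Pgr) towards lower values, against 4.8%. Above background these were 5 higher (Thra, Ppard, Vdr, Nr2c2 and Esr1) and 0 lower, where genes above background gave 9.28% and 5.12%. Of the 5, Vdr met the background limit only in HoxA9AA/Meis1, the group where it was higher, so the limit itself favoured counting it. The shares of all genes rest on the same limit. The remaining higher members, Rarb and Nr5a2, were at background on every array. The number above background that did not overlap rose from 5 to 8 without HoxA9AA replicate 1 and to 13 without HoxA9AA replicate 2, the array closest to the HoxA9wt group. Means were higher for 28 and lower for 17 of the 45, where 52.8% of all genes were higher, and the median difference was 0.05 against 0.01 over all genes.

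**Figure D1:**
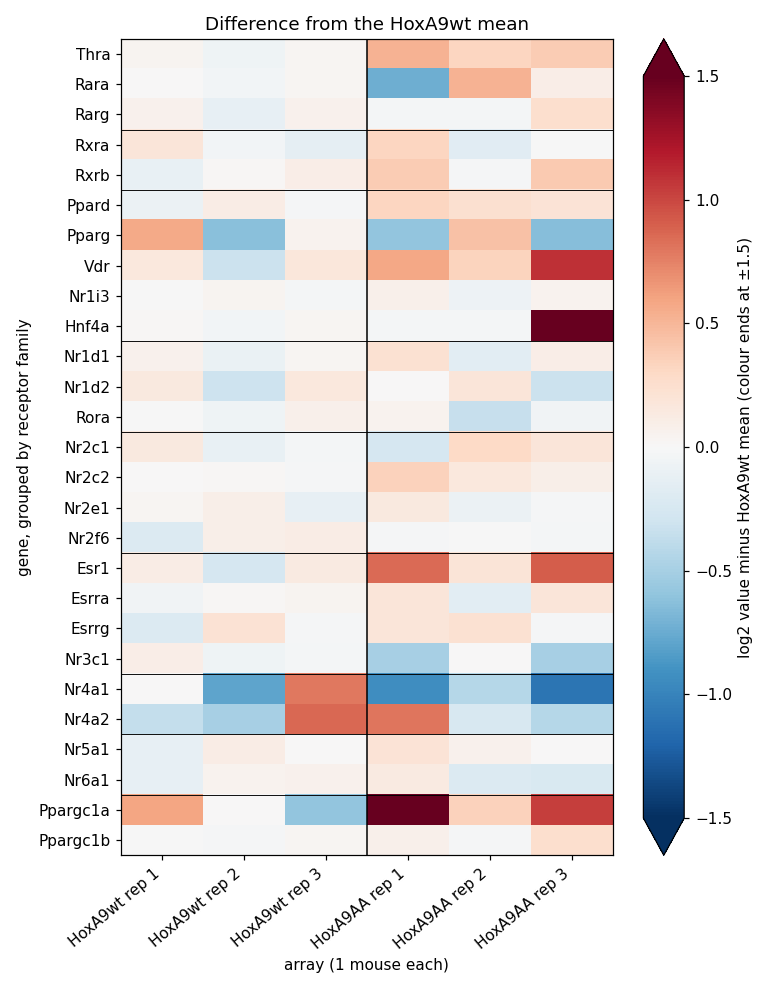
Colours give the log2 value minus the HoxA9wt mean of the gene for the 27 members above background (vertical axis, grouped by receptor family) on each of the 6 arrays (horizontal axis, 1 mouse each). The largest departures are single cells of HoxA9AA replicate 1 (Ppargc1a, 3.37) and HoxA9AA replicate 3 (Hnf4a, 2.43), while HoxA9AA replicate 2 has 1 member over 0.5 from the HoxA9wt mean.

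Single HoxA9AA mice departed from the HoxA9wt mean to different extents. Of the 27 members above background, 8 lay over 0.5 from it in HoxA9AA replicate 1, and 6 and 1 did so in replicates 3 and 2; among all genes above background these shares were 24.1%, 22.1% and 2.32%. The range over the 6 arrays exceeded 1 for 8 of the 27, namely Ppargc1a, Hnf4a, Nr4a1, Vdr, Nr4a2, Rara, Pparg and Esr1, and for 17.2% of all genes above background. The median range was 0.49 for the members and 0.56 for genes above background. The remaining 19 stayed within 1 unit: Nr1i3, for instance, stayed between 6.61 and 6.76, and Nr2f6, an orphan repressor, between 6.80 and 7.11.

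Among the receptors for thyroid hormone and retinoic acid, Thra stood higher in every HoxA9AA mouse. It measured 7.57, 7.47 and 7.56 in the HoxA9wt mice and 8.06, 7.85 and 7.92 in the HoxA9AA mice. The groups were apart by more than their spread, with means of 7.53 ± 0.06 and 7.94 ± 0.11 (SD, n = 3 each) and a difference of 0.41 ± 0.09 (SE), and yet the adjusted p was 0.731 (limma). The difference stayed between 0.35 and 0.46 when any 1 array was left out. The clock receptor gene Nr1d1, whose span overlaps that of Thra on chromosome 11 in RefSeq, measured 6.99 to 7.16 in HoxA9wt/Meis1 and 6.93 to 7.32 in HoxA9AA/Meis1. Dio2, the enzyme that makes active thyroid hormone, was at 7.64, 7.48 and 6.93 in HoxA9wt mice and at 9.04, 7.40 and 7.85 in HoxA9AA replicates 1, 2 and 3, and did not pass (limma, adjusted p = 0.782).

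Rara, the main retinoic acid receptor of granulocytic cells, was even in the HoxA9wt mice and uneven in the others. It measured 8.28, 8.23 and 8.30 in HoxA9wt/Meis1 against 7.54, 8.79 and 8.37 in HoxA9AA replicates 1, 2 and 3. So the lowest and the highest mouse were both HoxA9AA, and the difference of −0.04 ± 0.30 (SE; limma, adjusted p = 0.994) turned to 0.31 without HoxA9AA replicate 1. Rarg stayed between 7.65 and 8.02. The partner receptors did not stand apart either, with Rxra at 6.94 to 7.43 and Rxrb at 7.03 to 7.54 over the 6 mice; Rxrb was highest in HoxA9AA replicates 1 and 3, at 7.53 and 7.54. Genes induced by retinoic acid had a higher mean in 7 of 7 measured cases, 4 of them above background. Their median difference was 0.21 beside 0.01 over all genes, and 0 were called. The 7 include Rarb, itself a member, which was at background on every array. Averaged over the list, HoxA9wt mice lay at −0.01 to 0.01 from their mean, and HoxA9AA replicates 1, 2 and 3 at 0.54, 0.08 and 0.32. The list includes Dhrs3, a retinal reductase (9.02, 7.97 and 8.15 against 9.81, 8.81 and 9.55; limma, adjusted p = 0.731), and Cebpe, a granulocyte transcription factor (7.54, 8.18 and 7.60 against 8.92, 7.83 and 8.12; adjusted p = 0.794). Tgm2 stood at 6.56 to 6.85 and 6.67 to 6.99. Early granulocyte markers, 8 of 8 above background, ranked the HoxA9AA mice in the same order as this list. Their mean level was 11.77, 10.23 and 10.80 in HoxA9AA replicates 1, 2 and 3. In HoxA9wt/Meis1 it ran from 9.88 to 10.48, where the retinoic acid list was flat. The part of these markers in the result was not tested. In whole marrow a change in the number of cells of a type and a change of RNA per cell cannot be told apart. Of 13 measured genes of retinoid supply and breakdown 7 had a higher and 6 a lower mean, Dhrs3, which like Cyp26a1 and Stra6 is on both retinoid lists, being the 1 with an unadjusted p under 0.05.

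The fatty acid receptor Ppard was a little higher in HoxA9AA/Meis1 marrow. It measured 7.30, 7.50 and 7.37 in HoxA9wt mice and 7.71, 7.63 and 7.59 in HoxA9AA mice. The groups did not overlap, with a difference of 0.25 ± 0.09 (SE; limma, adjusted p = 0.731). Pparg, the receptor of fat cells and macrophages, followed single mice instead: HoxA9wt replicates 1, 2 and 3 stood at 8.29, 7.10 and 7.78 and HoxA9AA replicates 1, 2 and 3 at 7.13, 8.16 and 7.09. Its group means were 7.72 ± 0.60 and 7.46 ± 0.61 (SD, n = 3 each), so that the groups overlapped throughout. The fatty acid transporter gene Cd36, a target of Pparg in macrophages, was highest on the same 3 arrays, at 9.85 in HoxA9wt replicate 1, 7.69 in HoxA9wt replicate 3 and 7.26 in HoxA9AA replicate 2; the other arrays were at background, at 4.88 to 5.48. Fabp4, a fatty acid binding protein, stood at 10.33, 7.31 and 8.05 in HoxA9wt replicates 1, 2 and 3 and at 6.46, 7.60 and 7.43 in the HoxA9AA replicates. These genes were set beside Pparg after their values were seen. The mean level of the 12 macrophage markers, 9 above background, was 8.45, 7.79 and 8.03 in HoxA9wt replicates 1, 2 and 3 and 7.44, 8.07 and 7.78 in the HoxA9AA replicates, the same 3 arrays again being highest; their part in the level of Pparg was not tested. As a list, 12 measured genes induced by PPAR receptors, Cd36 and Fabp4 among them, had 5 higher and 7 lower means (median −0.05), and 0 were called. Their average departure was 0.51, −0.39 and −0.12 in HoxA9wt replicates 1, 2 and 3 and −0.38, −0.19 and −0.13 in the HoxA9AA replicates. HoxA9AA replicate 2 thus lay under replicate 3, and the list as a whole did not follow the 3 arrays with high Pparg.

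Vdr, the vitamin D receptor, was higher in each HoxA9AA mouse. It measured 6.98, 6.50 and 6.99 in HoxA9wt mice, around the background limit, and 7.40, 7.16 and 7.92 in HoxA9AA mice. The nearest mice were 6.99 and 7.16, and the difference was 0.67 ± 0.23 (SE; limma, adjusted p = 0.731). Leaving out 1 array moved it between 0.46 and 0.84. Genes near Vdr were somewhat higher in HoxA9AA replicates 1 and 3 but not in replicate 2: over its 10 nearest measured neighbours on chromosome 15, 8 of them above background, HoxA9AA replicates 1, 2 and 3 had a median departure of 0.27, −0.02 and 0.35, and Vdr itself departed by 0.58, 0.34 and 1.10. Genes induced by LXR receptors, whose member Nr1h2 was not measured, had 7 higher and 3 lower means among 10, with a median of 0.05.

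Hnf4a departed in 1 animal and nowhere else. HoxA9wt mice measured 7.48, 7.42 and 7.50, HoxA9AA replicates 1 and 2 both 7.44, and HoxA9AA replicate 3 measured 9.90. That mouse was 2.43 above the HoxA9wt mean, or 5.40-fold, while the other 5 spanned 7.42 to 7.50. The group difference of 0.79 ± 0.65 (SE; limma, adjusted p = 0.859) therefore rested on 1 mouse and was −0.03 without it. Over its 10 nearest measured neighbours on chromosome 2, 6 of them above background, the median departure in HoxA9AA replicate 3 was 0.03. The adjacent Hnf4aos, a transcript antisense to Hnf4a, lay at 6.31 to 6.56 on all 6 arrays. It was not above background in either group, so its even level says little. Ttpal, the next gene on the other side, stood at 7.41 in that mouse and 6.66 to 7.28 in the others. Pkig, at 7.88 against 7.27 to 7.53, and the adenosine deaminase gene Ada, at 7.95 to 9.28 in the other mice, were also highest there. A list of genes bound by HNF4A in liver and gut, made after the value of Hnf4a was seen, had 18 measured members, 8 of them above background. Averaged over this list HoxA9AA replicate 3 lay at −0.05 from the HoxA9wt mean, within the −0.08 to 0.07 of the other mice. Single genes departed there in opposite directions. Trf stood at 9.69 against 8.33 to 8.98 in HoxA9wt mice, F7 at 8.02 against 9.22 to 9.54 and F10 at 10.14 against 10.81 to 11.27. In HoxA9AA replicate 1, where Hnf4a was not raised, Trf was also high (10.45) and F7 also low (8.35).

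**Figure D2:**
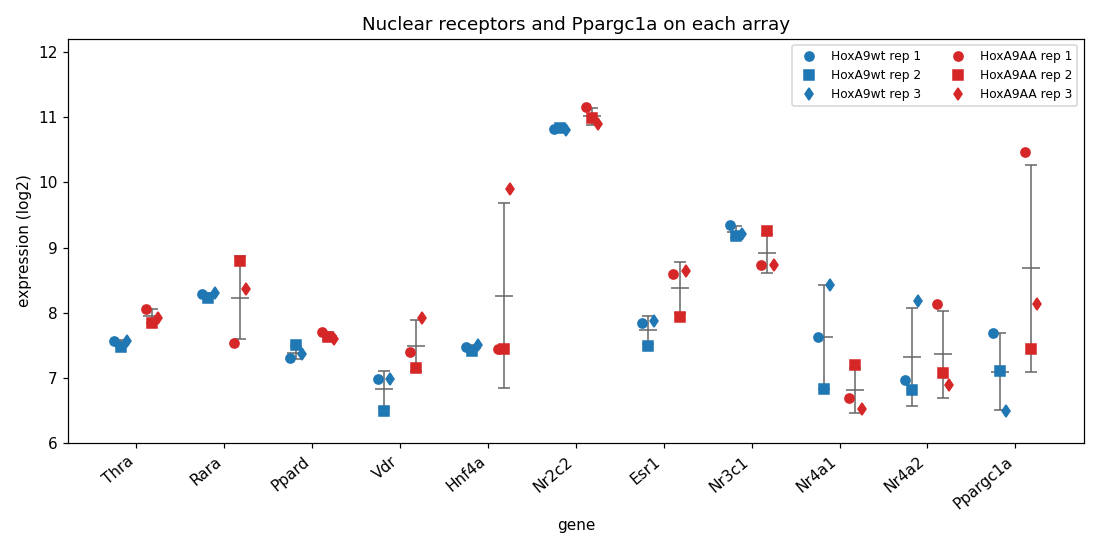
Vertical axis, log2 expression; horizontal axis, the 11 members named by size of change or range. Each symbol is 1 mouse, coloured by group, with the mean ± SD of 3 mice as a bar. Thra, Ppard, Vdr, Nr2c2 and Esr1 keep the groups apart, whereas Hnf4a at 9.90 and Ppargc1a at 10.47 are each raised in 1 HoxA9AA mouse.

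The clock receptors showed no group pattern. Nr1d2, a haem-sensing repressor like Nr1d1, measured 7.71, 7.26 and 7.73 in HoxA9wt mice and 7.57, 7.75 and 7.25 in HoxA9AA mice, and Rora, the activator that binds the same elements, measured 6.76 to 6.91 and 6.48 to 6.88. Of 13 measured circadian clock genes 7 were higher and 6 lower in mean (median 0.02), with 0 called. Per3 was highest in HoxA9AA replicate 1, at 7.57, where HoxA9wt mice measured 6.67 to 6.82, and did not pass (limma, adjusted p = 0.794).

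Of the orphan NR2 receptors Nr2c2, also known as TR4, kept the groups apart by little. It measured 10.82, 10.83 and 10.80 in HoxA9wt mice and 11.16, 10.98 and 10.90 in HoxA9AA mice. Its difference of 0.20 ± 0.10 (SE; limma, adjusted p = 0.741) was larger than the SD of either group, 0.02 in HoxA9wt/Meis1 and 0.13 in HoxA9AA/Meis1. Its relative Nr2c1 measured 7.68 to 7.94 and 7.54 to 8.09, so these groups overlapped, and Nr2e1 and Nr2f6 stayed within 0.27 and 0.31 over all arrays.

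Esr1, the oestrogen receptor alpha, was higher in HoxA9AA/Meis1 marrow in all 3 mice, though barely in 1. HoxA9wt mice measured 7.85, 7.49 and 7.87, and HoxA9AA replicates 1, 2 and 3 measured 8.59, 7.93 and 8.64. Replicate 2 was thus within 0.19 of the HoxA9wt mean, and replicates 1 and 3 were 0.85 and 0.90 above it. The difference was 0.65 ± 0.22 (SE; limma, adjusted p = 0.731) and 0.88 without HoxA9AA replicate 2 (adjusted p = 0.0912). Of the 10 stroma and fat markers, 6 above background, the mean level was 6.85, 6.87 and 6.94 in HoxA9wt mice and 7.10, 7.09 and 7.02 in HoxA9AA replicates 1, 2 and 3, which did not set replicates 1 and 3 apart; their part in the level of Esr1 was not tested. The largest difference on that list was that of Pecam1, at 9.84, 8.96 and 9.32 against 10.88, 9.87 and 10.94 (1.19 ± 0.35, SE, adjusted p = 0.731 by limma). The median difference over the list was 0.04, so the mean level of the list leaned on Pecam1. Cdh5, an endothelial gene on the list, was not above background in either group, at 6.33 to 6.44 against 6.27 to 6.55. Monocyte markers had a mean level of 10.01 to 10.44 in HoxA9wt/Meis1 and of 8.89, 10.23 and 9.18 in HoxA9AA replicates 1, 2 and 3. For early granulocyte markers it was 9.88 to 10.48 and 11.77, 10.23 and 10.80. Both of these lists set HoxA9AA replicates 1 and 3 apart, and their part in the level of Esr1 was not tested either. The oestrogen-related receptors Esrra (6.62 to 6.97) and Esrrg (6.44 to 6.87), partners of the Pgc1 coactivators, stayed near the background limit in every mouse.

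Nr3c1, the glucocorticoid receptor, was lower in 2 of the 3 HoxA9AA mice. It measured 9.34, 9.17 and 9.21 in HoxA9wt mice, 8.74 in both HoxA9AA replicates 1 and 3, and 9.25 in HoxA9AA replicate 2, which overlapped the HoxA9wt values. The difference was −0.33 ± 0.16 (SE; limma, adjusted p = 0.735), and without HoxA9AA replicate 2 it was −0.50 (adjusted p = 0.118). Of 12 genes known to be induced by glucocorticoids, all above background, 8 had a lower and 4 a higher mean, with a median of −0.38 beside 0.01 over all genes; 0 were called. Of the 12, 3 had an unadjusted p under 0.05, all lower (Fkbp5, Errfi1 and Il1r2), where 2.59% of all genes were lower and 4.15% higher by that measure. The list shares Dusp1 with the immediate early genes described below. Averaged over the list, the HoxA9wt mice lay at −0.14 to 0.18 and HoxA9AA replicates 1, 2 and 3 at −0.28, −0.54 and −0.55. HoxA9AA replicates 2 and 3 were thus alike on the list, with Nr3c1 at 9.25 and 8.74. The part of Nr3c1 in these averages was not tested. Fkbp5, a chaperone that restrains the receptor, measured 9.95, 9.50 and 9.76 against 8.34, 9.34 and 9.22 (limma, adjusted p = 0.731). Errfi1, an inhibitor of growth factor receptor signalling, measured 8.86, 8.62 and 9.65 against 7.72, 8.25 and 7.32 (adjusted p = 0.731). Il1r2, a decoy receptor for interleukin-1, had overlapping groups, at 9.16, 10.99 and 10.15 against 8.07, 9.42 and 7.23 (difference −1.86 ± 0.65, SE; adjusted p = 0.731, limma). Tsc22d3, a widely used marker of receptor activity, overlapped between groups, at 8.31 to 8.66 against 8.17 to 8.37. The metallothionein gene Mt2 was high in HoxA9AA replicates 1 and 3, at 10.29 and 10.25, and low in replicate 2, at 7.71, with HoxA9wt mice at 8.77 to 9.05. Monocyte markers, 13 of 13 above background, had a mean level of 10.01 to 10.44 in HoxA9wt/Meis1 and of 8.89, 10.23 and 9.18 in HoxA9AA replicates 1, 2 and 3. They were low in the mice where Nr3c1 was low, and their part in that was not tested.

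The NR4A receptors are immediate early genes, switched on within minutes by many stimuli, and act without a bound ligand. Much of that response runs through the cAMP response element, whose core letters are TGACG, searched here on both strands. The 250 bases before the start site of all 3 genes are shown because they carry this core repeatedly and because Nr4a1 and Nr4a2 were both raised in 1 mouse. The sequences are from RefSeq on GRCm38.p6, 5′ to 3′ on the strand of the gene, with each core in capitals. Nr4a1 lies on the plus strand at chr15:101266596-101266845, Nr4a2 on the minus strand at chr2:57124004-57124253 and Nr4a3 on the plus strand at chr4:48045055-48045304.
Nr4a1: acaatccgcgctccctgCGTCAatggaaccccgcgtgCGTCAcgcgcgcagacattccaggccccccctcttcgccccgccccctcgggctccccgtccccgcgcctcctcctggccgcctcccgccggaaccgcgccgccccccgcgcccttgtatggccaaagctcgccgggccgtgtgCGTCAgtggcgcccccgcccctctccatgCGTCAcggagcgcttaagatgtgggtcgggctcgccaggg
Nr4a2: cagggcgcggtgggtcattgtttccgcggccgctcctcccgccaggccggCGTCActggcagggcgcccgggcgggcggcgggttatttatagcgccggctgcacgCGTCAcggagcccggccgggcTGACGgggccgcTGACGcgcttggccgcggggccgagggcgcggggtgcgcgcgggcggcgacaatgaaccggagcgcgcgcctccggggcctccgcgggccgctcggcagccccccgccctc
Nr4a3: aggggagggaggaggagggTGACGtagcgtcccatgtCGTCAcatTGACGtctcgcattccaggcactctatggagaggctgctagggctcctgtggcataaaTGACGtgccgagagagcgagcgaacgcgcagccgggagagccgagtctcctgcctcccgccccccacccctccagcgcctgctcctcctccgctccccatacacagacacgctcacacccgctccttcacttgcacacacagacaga
Each of these windows held 4 cores on either strand, with the first base 233, 213, 69 and 40 bases before the start for Nr4a1, 200, 144, 123 and 111 for Nr4a2, and 231, 213, 205 and 147 for Nr4a3. Among the 32851 promoters listed, 17.8% held at least 1 core and 45, or 0.137%, held 4 or more; among the 42 members with an entry these 3 were the ones with 4 or more. The core was chosen for search after the windows were seen. The full palindrome TGACGTCA, present in 1.55% of entries, was in none of the 3 windows and, among members, in that of Nr2e1 alone. The NR4A element AAAGGTCA was in 1.34% of entries and in windows of Rxra and Rxrg. It contains the general receptor core AGGTCA, which was in 14% of entries and in windows of 10 of the 42 members. Neither was in an NR4A window, and the window of Nr1d1 held no match to these last 3 motifs, all searched on both strands. A match of letters does not show that a factor binds there.

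Nr4a1, which marks recent signalling in lymphoid and myeloid cells and is needed by patrolling monocytes, was lower on average in HoxA9AA/Meis1 marrow. It measured 7.63, 6.83 and 8.42 in HoxA9wt mice and 6.70, 7.20 and 6.53 in HoxA9AA mice. The groups overlapped, since HoxA9wt replicate 2 lay under HoxA9AA replicate 2, and HoxA9wt replicate 3 was the highest. The difference was −0.82 ± 0.40 (SE; limma, adjusted p = 0.741), and it was −0.42 without HoxA9wt replicate 3 and −1.22 without HoxA9wt replicate 2. Nr4a2 measured 6.97, 6.82 and 8.18 in HoxA9wt mice and 8.13, 7.08 and 6.89 in HoxA9AA mice, so that HoxA9wt replicate 3 and HoxA9AA replicate 1 stood alone at the top. Its difference of 0.04 ± 0.46 (SE; limma, adjusted p = 0.994) had no stable sign, being −0.34 without HoxA9AA replicate 1 and 0.47 without HoxA9wt replicate 3. Nr4a3 was at background on all 6 arrays, at 4.78 to 5.24, with HoxA9wt replicate 3 again highest.

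Other immediate early genes had the same high mouse. Of 15 above background 11 were highest in HoxA9wt replicate 3, among them Jun (9.63 against 7.15 to 8.51) and Atf3 (9.02 against 6.94 to 7.51). Egr2, not above background in either group by the rule, was at 8.59 there and at 6.52 to 6.77 in the other mice. Averaged over the 19 measured, that mouse lay at 0.54 and the other 5 at −0.37 to −0.17. HoxA9AA replicate 1, where Nr4a2 was raised by 0.81, lay at −0.21, so its Nr4a2 was high without the rest of the list. Nr4a1 was 0.93 under the HoxA9wt mean in that same mouse, so there the pair parted. Of the 19 genes 16 had a lower and 3 a higher mean (median −0.16), and 0 were called. An unadjusted p under 0.05 (limma) was reached by 3, all lower (Fos, Klf4 and Klf6). Among all genes 2.59% were lower and 4.15% higher by that measure. Fos kept the groups apart, at 6.73 to 7.55 against 5.95 to 6.58, and met the background limit only in HoxA9wt/Meis1. Klf4 and Klf6 overlapped between the groups, and Klf4 is also on the monocyte list.

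**Figure D3:**
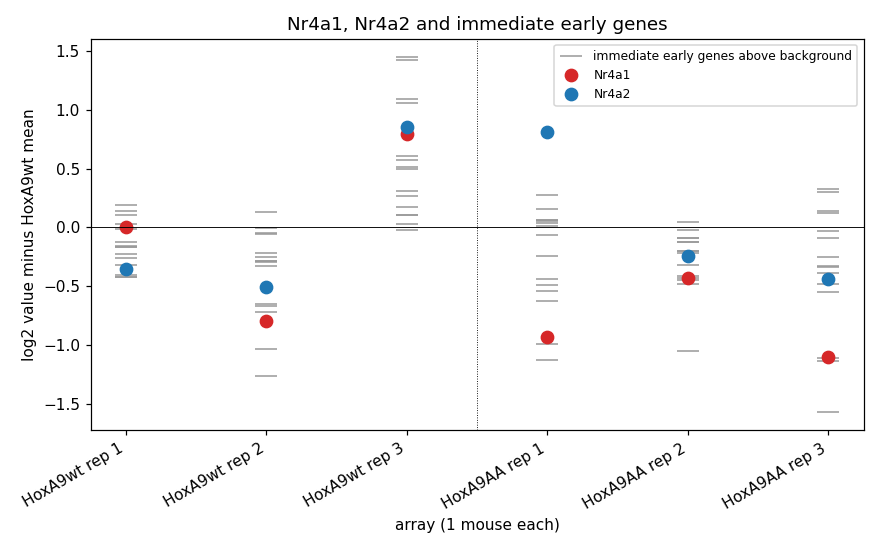
Log2 value minus the HoxA9wt mean (vertical axis) of Nr4a1 (red), Nr4a2 (blue) and the 15 immediate early genes above background (grey dashes) on each of the 6 arrays (horizontal axis). Both receptors are raised with the other genes in HoxA9wt replicate 3 (0.79 and 0.86), whereas in HoxA9AA replicate 1 Nr4a2 stands at 0.81 and Nr4a1 at −0.93.

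Of the NR5, NR6 and NR0 receptors, which act in gonads, adrenals, liver and early embryos, Nr5a1 (6.81 to 7.14) and Nr6a1 (6.97 to 7.33) were above background by a small margin on all arrays. The groups overlapped for both.

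Ppargc1a, the coactivator of mitochondrial biogenesis and fasting metabolism, had the widest range of all members. It measured 7.69, 7.10 and 6.50 in HoxA9wt mice and 10.47, 7.44 and 8.13 in HoxA9AA replicates 1, 2 and 3. HoxA9wt replicate 3, at 6.50, lay under the background limit of its array (6.63), so the HoxA9wt mean includes a background reading and no fold is given. HoxA9AA replicate 1 was 3.37 above that mean, and HoxA9AA replicate 3 was 1.03 above it, while replicate 2 lay among the HoxA9wt mice. The difference of 1.58 ± 0.77 (SE; limma, adjusted p = 0.741) was 0.69 without HoxA9AA replicate 1. A dimmer probe set of the same gene pointed to the same mouse, with 5.69 in HoxA9AA replicate 1 and 4.50 to 4.83 elsewhere, all under the background limit. The 10 nearest measured neighbours on chromosome 5 had a median of −0.09 in that mouse. Only 2 of them were above background, so this median says little about expressed genes there. Ppargc1b, its close relative, stayed between 6.77 and 7.04 in all 6 mice.

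Mitochondrial genes known to be driven by Pgc1 differed between the 2 mice with the highest Ppargc1a, being mostly lowest in HoxA9AA replicate 1 and often highest in HoxA9AA replicate 3. Of the 18 measured, all above background, 13 had their lowest value in HoxA9AA replicate 1 and 10 their highest in HoxA9AA replicate 3. For 19 coactivators and corepressors these counts were 8 and 4, and for the 27 members above background 3 and 6. The shares over all genes were not counted. On these 2 arrays 24.1% and 22.1% of all genes above background lay over 0.5 from the HoxA9wt mean. That share does not count on which array a gene was highest or lowest. Averaged over the 18 Pgc1-driven genes the HoxA9wt mice lay at −0.02 to 0.04 and HoxA9AA replicates 1, 2 and 3 at −0.27, −0.03 and 0.17. Between groups 7 had a higher and 11 a lower mean (median −0.09), and 0 were called. The list includes Esrra, which is also a member. Atp5b, the catalytic subunit of ATP synthase, kept the groups apart at 11.94, 11.97 and 11.94 against 11.70, 11.54 and 11.66, a difference of −0.32 ± 0.08 (SE; limma, adjusted p = 0.731). Tfam, which packages mitochondrial DNA, measured 7.22, 7.63 and 7.90 in HoxA9AA mice and 7.31 to 7.80 in HoxA9wt mice.

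The cofactors that receptors recruit moved little as an average. Over 19 measured coactivators and corepressors, all above background, no array lay further than 0.07 from the HoxA9wt mean, and 8 had a higher and 11 a lower mean (median −0.01). Tbl1xr1, a subunit of the corepressor complex, measured 10.51, 10.30 and 10.40 in HoxA9wt mice and 9.61 to 10.13 in HoxA9AA mice, while its relative Tbl1x measured 9.99 to 10.05 against 10.19 to 10.48. The arginine methyltransferase gene Carm1, a coactivator, measured 7.91 to 8.21 against 8.23 to 8.63. The coactivator Ncoa2 measured 9.06, 8.92 and 8.95 against 9.42, 9.14 and 9.08. With it, groups did not overlap for 3 higher and 1 lower of the 19, where genes above background gave 9.28% and 5.12%. None of the 4 passed (limma, adjusted p = 0.731, and 0.741 for Ncoa2). Enzymes of other ligands gave 3 higher and 6 lower means among 9, with Hsd11b1, which regenerates active glucocorticoid, at 7.74 to 8.69 against 7.80 to 8.47.

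**Figure D4:**
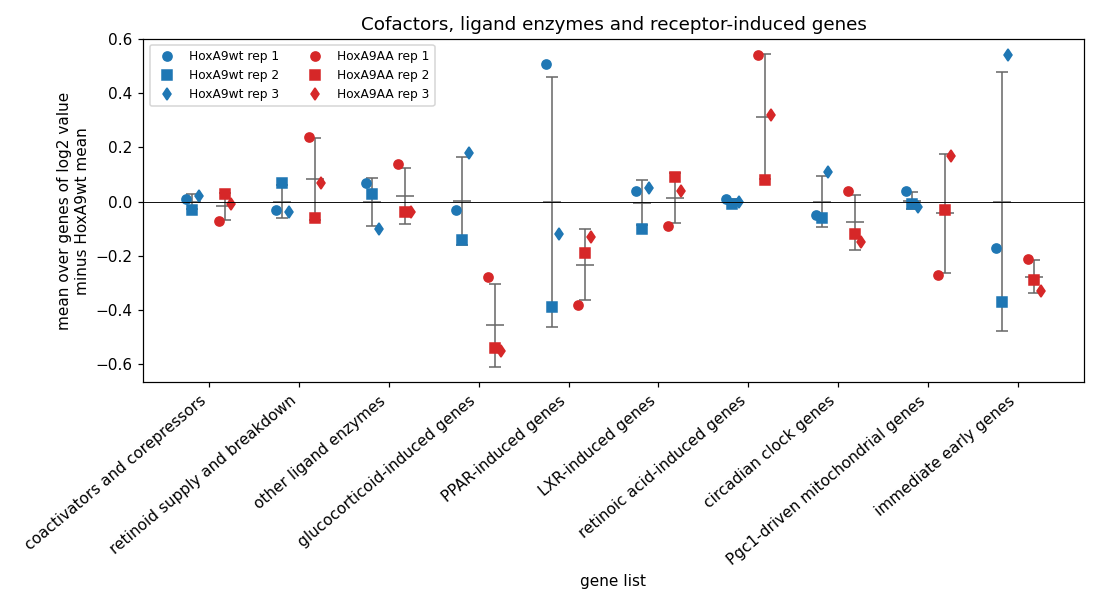
Vertical axis, departure from the HoxA9wt mean in log2 units, averaged over the measured genes of a list; horizontal axis, 10 lists of cofactors, ligand enzymes and induced genes. Each symbol is 1 mouse, with the mean ± SD of 3 mice as a bar. Glucocorticoid-induced genes lie lower in all 3 HoxA9AA mice (−0.55 to −0.28 against −0.14 to 0.18), and the immediate early and PPAR-induced lists each have 1 HoxA9wt mouse apart, at 0.54 and 0.51.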

How the data were processed

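RNA of total bone marrow from 6 mice was hybridised to 6 Affymetrix whole-transcript arrays, 1 per mouse. The deposited values are log2 expression per probe set; per the submitters' processing notes the authors used oligo and RMA, which corrects background, normalizes by quantiles and summarises probe sets. Their versions are not given in the sources used, and the log2 scale was also read from the range (2.59 to 13.54). Of 35556 probe sets 21789 had 1 symbol in the platform annotation, 1621 several and 12146 none listed. The brightest per gene left 19938 genes. An array gives no depth, so the number of mice limits precision.

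The test was limma 3.58.1 under R 4.3.3 (a two-sided fit by lmFit and eBayes, Benjamini-Hochberg over all genes, threshold 0.05), after a check on simulated data. Members and lists were chosen with earlier results of these data known. Differences are given for members above background among the 8 smallest unadjusted p, the 6 widest ranges or with non-overlapping groups; of each list up to 3 genes by unadjusted p. Ncoa2, Cdh5, Pgr, Thrb, Pparg, Cd36, Fabp4, Hnf4aos, Ttpal, Fitm2, Pkig, Ada, Egr2, Jun, Atf3, Tsc22d3, Mt2 and Tfam were named outside this rule after their values were seen. Neighbours are the 5 nearest measured genes on each side in RefSeq order (GRCm38.p6). Promoters are RefSeq's, matched by symbol for 42 of 47 members. Alternatives were a replicate block, each array left out in turn, 2 filters on low values, probe sets averaged per gene, centring on the median, quantile normalization, a robust eBayes with trend, and other background limits.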

Additional observations from a re-analysis of the deposited data

How the results depend on the processing

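No member passed an adjusted p of 0.05 in limma under the main setting or any alternative fitted, and 5 had in the main one an unadjusted p under 0.05. That count was 3 when only genes above background were tested, and 3 to 7 when 1 array was left out. With a replicate block it was 4, the call of each member was the same, and 0 genes were called over all genes. Deviations of same-numbered mice from their group means correlated at −0.208, −0.103 and −0.013. Differently numbered mice were not compared in this way, so these values cannot tell whether the numbers pair mice. Over all genes leaving out 1 array called 0 to 48, of which 1 was without HoxA9wt replicate 3 and 48 without HoxA9AA replicate 2. Members above background with non-overlapping groups numbered 5 to 13 when 1 array was left out, and members above background 11 with the 99th percentile as the limit and 28 with the 90th. Of the 11 members with a difference given, none turned sign in the 77 comparisons with other settings of all 6 arrays. Leaving out 1 array turned 5 of 66, with ranges of −0.32 to 0.31 for Rara, −0.03 to 1.20 for Hnf4a and −0.34 to 0.47 for Nr4a2. Median centring moved all differences by −0.018. Lists with a median above 0 numbered 9 of 20, and 6 after median centring.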
